A study of Mus musculus with 4 samples.

Results

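Blood endothelial cells without detected Ackr1, the atypical chemokine receptor that marks venules, were followed through single-cell RNA libraries of mouse gingiva. Members were chosen by their measured UMIs (unique molecular identifiers, 1 per captured RNA molecule). A barcode had to hold at least 200 genes, at most 20% mitochondrial UMIs, at least 3 detected genes of Pecam1, Cdh5, Emcn, Egfl7, Plvap, Kdr, Flt1, Cldn5, Tie1 and Ptprb, and 0 UMIs of both Prox1, a lymphatic transcription factor, and Ackr1. This rule found 134 members among 7134 kept barcodes, or 1.88%. The 4 groups were diseased gingiva treated with metformin, diseased gingiva, gingiva given metformin without disease, and healthy gingiva, with 1 library each. Metformin is a glucose-lowering drug, and the series title places it in the prevention of periodontal disease. The maxillary gingiva was cut out, digested with collagenase and DNase, strained and loaded on the 10x Genomics droplet platform, with no sort. The strain and age of the mice, how many gave tissue to a library, how disease was induced and the metformin dose are not given in the sources used here.

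Endothelial cells line all blood vessels, and their genes differ by position. Arterial cells use Notch signalling and Sox17 and carry the gap junction protein Gja4. Capillary cells exchange water, gas and lipid, and in muscle, heart and fat many of them take up fatty acids: Gpihbp1 holds lipoprotein lipase on the capillary wall, Cd36 passes fatty acids across the membrane, Fabp4 carries them in the cytosol, and in the mouse heart Meox2 and Tcf15 are transcription factors of this uptake. Venular cells express the adhesion molecules on which leukocytes roll and leave the blood. Plvap forms the diaphragms of fenestrae and caveolae, and Esm1 marks sprouting cells.

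The libraries held between 12507787 and 22333858 UMIs. Members numbered 19 of 1657 kept barcodes in the disease plus metformin library, 59 of 1693 in the disease library, 31 of 2477 in the metformin library and 25 of 1307 in the healthy library. Their shares were 1.15% (exact Clopper-Pearson 95% interval 0.692% to 1.78%), 3.48% (2.66% to 4.47%), 1.25% (0.852% to 1.77%) and 1.91% (1.24% to 2.81%) in that order of libraries. The disease interval lay above those of both metformin libraries and overlapped that of the healthy library. All intervals cover counting error only, and 1 library per group allows no test between conditions. The median member held 2870, 2222, 3257 and 2471 UMIs in the same order, and the member UMIs summed to 81229, 165409, 170328 and 76309. A single barcode held 23.2%, 15.1%, 25.0% and 10.3% of these sums. Levels are given as CPM, UMIs per 1000000 UMIs of the summed members of a library. Of the kept barcodes, 4 sequences occurred in more than 1 library, and none of them was a member.

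The 6 genes that mark these cells were detected in every library, Cldn5 in few barcodes. Pecam1, the platelet endothelial adhesion molecule, was at 763 CPM in the disease plus metformin library, 1112 in disease, 916 in metformin and 970 in healthy. Cdh5, the cadherin of endothelial junctions, was at 480, 798, 552 and 773 CPM in the same order, the VEGF receptor Kdr at 579, 707, 710 and 773 CPM, and the VEGF receptor Flt1 at 1490, 1318, 1662 and 1297 CPM. These genes, and Cldn5, are part of the rule, so their presence is a description. Sox17, which the rule did not use, was at 234, 236, 153 and 275 CPM and was found in 57 of 134 members, against 0 of 5345 keratinocyte barcodes (allowing a share of up to 0.0561%). The keratinocyte barcodes are those with at least 3 keratin or other keratinocyte genes and none of the 10 endothelial genes; their median of 1647 UMIs was below the 2490 of members. Cldn5, the tight junction claudin, was found in only 28 members, in 6, 13, 3 and 6 barcodes of the libraries in the order above, at 332, 351, 41.1 and 236 CPM. The 6 identity genes summed to 3878, 4522, 4033 and 4325 CPM in members, against 32.7, 73.6, 47.9 and 44.3 CPM over all kept barcodes of those libraries. Without the 17 members that held more UMIs of another cell class, described next, the sums were 5192, 4553, 5396 and 4937 CPM. The order of the libraries thus changed, and disease went from the highest sum to the lowest.

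RNA of other cell types was uneven between the libraries, and several lists sat largely in single barcodes. The 13 keratinocyte genes summed to 148 CPM in disease plus metformin, 218 in disease, 4926 in metformin and 7011 in healthy members, and 1 barcode held 93.4% of these UMIs in metformin and 82.2% in healthy. The 12 salivary gland genes summed to 3472, 121, 411 and 1992 CPM, with 89.7% of the disease plus metformin UMIs in 1 barcode. In healthy members salivary gland RNA was spread over 21 of 25 barcodes, with 27.6% in 1. The 5 erythroid genes summed to 185, 381, 61957 and 1179 CPM, and 1 metformin barcode held 99.8% of that library's. The 10 mural cell genes summed to 628, 266, 64.6 and 2346 CPM, and of the healthy ones 91.1% came from 1 barcode. Of the 9 fibroblast genes all were at 0 in disease plus metformin and in healthy members, and of the 12 leukocyte genes all were at 0 in metformin and in healthy members. The 7 lymphatic genes summed to 591, 30.2, 17.6 and 13.1 CPM, and 1 disease plus metformin barcode without Prox1 held 97.9% of that library's, all its Reln and Mmrn1 among them. In 17 members, 4, 2, 5 and 6 by library in the same order, 1 other class had more UMIs than the 10 endothelial genes, in 1 of them the lymphatic class. Without these barcodes healthy members still had 1497 CPM of keratinocyte and 1248 CPM of salivary gland genes, against 14952 and 71641 CPM over all kept healthy barcodes. Results below include these 17 mixed barcodes unless stated, and values without them are given only for some lists and for the contrast with Ackr1-positive barcodes. Single genes close to a threshold may change sides without them. Since CPM divides by all member UMIs, mixed barcodes also lower the level of endothelial genes in a library, and not equally in each. The barcode with most UMIs was mixed in disease plus metformin (18812 UMIs), metformin (42554 UMIs) and healthy (7871 UMIs), but not in disease (24904 UMIs). Ratios between libraries below are to be read with this limit. The part of other-cell RNA in the mixed barcodes was not tested further.

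At the edge of the rule, 22 members had exactly 3 of the 10 genes, with a median of 726.5 UMIs in all and 5 endothelial UMIs, and 4 of them were mixed. The 27 barcodes that missed the rule with 2 genes had a median of 960 UMIs and 2 endothelial UMIs, and 14 of them were mixed. On the other edge, 24 barcodes met every other term but held Ackr1, with a median of 3 Ackr1 UMIs, and 6 of them had exactly 1. A cell with little Ackr1 RNA can therefore fall on either side by counting error.

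Arterial and capillary genes were often found in the same barcodes. Of the 134, 92 (68.7%) had at least 2 genes of the 14-gene arterial list and 100 (74.6%) at least 2 of the capillary list without Kdr, and 76 had both. With at least 3 genes of each list 45 had both (33.6%), and after thinning to 1000 UMIs 34 of 105 (32.4%). Cxcl12 gave 74.7% of the arterial list's UMIs and was found in 37 of the 40 members with Gpihbp1 but neither Plvap nor Gja4. The tip and sprouting list was met by 54 members (40.3%), and the venular list without Ackr1 by 38 (28.4%). In keratinocyte barcodes the same counts gave 5.48% for the arterial, 1.27% for the capillary, 8.92% for the tip and 9.22% for the venular list. Among the 24 Ackr1-positive barcodes they were met by 7, 18, 4 and 21. By these counts capillary genes were found on both sides of the Ackr1 line, while 21 of 24 Ackr1-positive barcodes and 38 of 134 members met the venular list. A further 11 members met no list and had a median of 1145 UMIs, against 2744 in the others. After each barcode was thinned to 1000 UMIs, which left 105 members, the lists were met by 52, 61, 11 and 13.

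**Figure D1:**
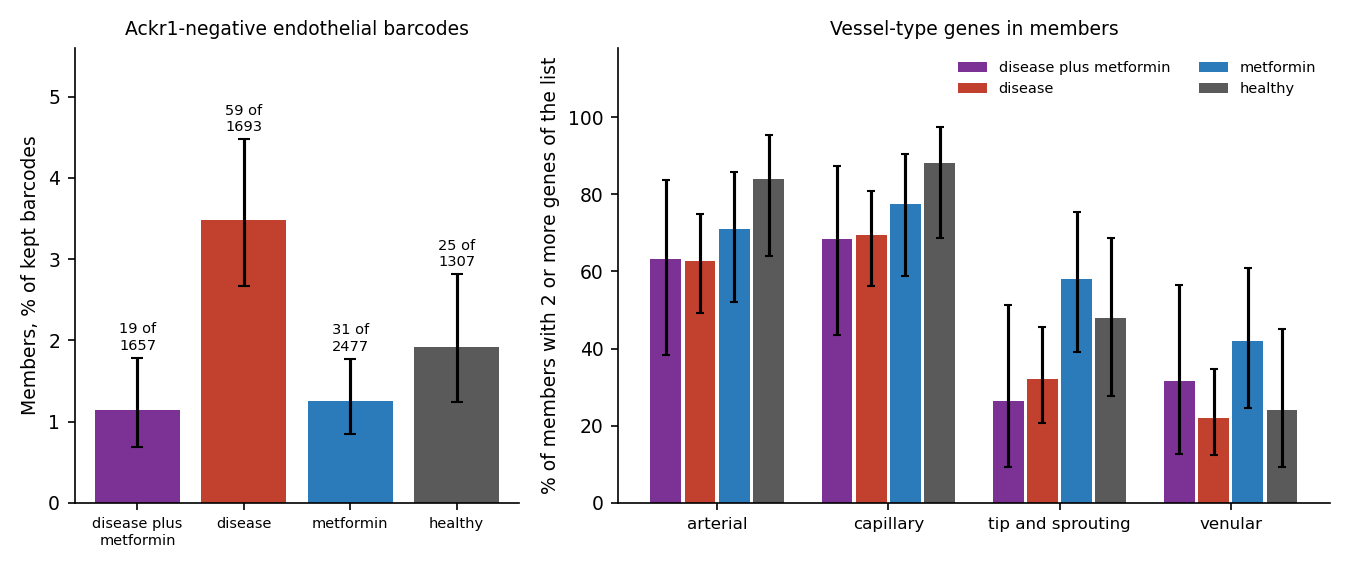
Left, members as a percentage of kept barcodes in each library, with the counts above; right, percentage of members with at least 2 genes of 4 vessel-type lists, coloured by library. Bars are exact 95% intervals for counting error. Members made up 3.48% of the disease library and 1.15% to 1.91% of the others, and the intervals of the lists overlapped between libraries.

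Members divided by which of 3 genes they held. Gja4, the arterial connexin, was found in 22 members, Gpihbp1 without Plvap or Gja4 in 40, and Plvap without Gpihbp1 or Gja4 in 31, while 9 held both Gpihbp1 and Plvap without Gja4 and 32 held none. The Gja4 set was defined by that gene alone, and of its 22 barcodes 9 also held Plvap and 4 Gpihbp1. These sets were chosen after their values were seen, and cells of 1 library share their source, so what follows is a description with no test. The sets had medians of 4366 UMIs (Gja4), 2289.5 (Gpihbp1), 2700 (Plvap) and 1442.5 (none). In the order disease plus metformin, disease, metformin and healthy, the Gja4 set held 4, 10, 7 and 1 members. The Gpihbp1 set held 5, 16, 9 and 10, and the Plvap set 3, 18, 8 and 2. Each of these sets thus drew on all 4 libraries.

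The Gpihbp1 set carried the lipid genes. Fabp4 was at 19481 CPM in its 40 barcodes, all of which held it, against 2213 CPM in the Plvap set, where 7 of 31 barcodes did, and 1477 CPM in the Gja4 set, where 6 of 22 did. Cd36 was at 2407 CPM (36 barcodes) in the Gpihbp1 set and 134 CPM (4 barcodes) in the Plvap set. Lpl, lipoprotein lipase itself, was at 1165 CPM (29 barcodes) in the Gpihbp1 set and 8.96 CPM (1 barcode) in the Plvap set, and Tcf15 at 1285 CPM (31 barcodes) and 62.7 CPM (2 barcodes) in that order. The metalloproteinase inhibitor Timp4 was at 733 and 8.96 CPM, and Car4, a carbonic anhydrase on the surface of capillaries, was at 466 CPM in the Gpihbp1 set and had no UMI in the Plvap set. Rgcc, a regulator of the cell cycle, stood at 1484 against 143 CPM and the water channel Aqp1 at 1803 against 448 CPM. Lipid-uptake genes thus often lay in the same barcodes, with Fabp4 in all 40, Cd36 in 36 and Lpl in 29 of the Gpihbp1 set. Rgcc, which is outside the fatty acid list, was found in 42 of the 53 members that held Gpihbp1, against 49.3% of all members. Cd36 was found in 42 of the 66 that held Rgcc, against 42.5% of all members.

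The Plvap and Gja4 sets shared several genes that were scarce in the Gpihbp1 set. Of the 22 Gja4 barcodes 9 also held Plvap, while the Gpihbp1 set was defined without it. How much of the sharing comes from these 9 barcodes was not tested. The sprouting marker Esm1 was at 547 CPM in 10 of the 31 Plvap barcodes and 606 CPM in 8 of the 22 Gja4 barcodes, and had no UMI in the Gpihbp1 set. Over all members, 18 of the 20 with Esm1 held Plvap and 2 held Gpihbp1, against 36.6% and 39.6% of members that held these genes. Ehd4, a protein of membrane trafficking, was at 1039 CPM (23 barcodes) in the Plvap set, 465 CPM (14 barcodes) in the Gja4 set and 60.4 CPM (6 barcodes) in the Gpihbp1 set. Itih5, a hyaluronan-binding protein, was at 806 CPM in the Plvap set, 443 CPM in the Gja4 set and 69.0 CPM in the Gpihbp1 set. The Gja4 set had Sema3g, a secreted semaphorin, in 11 of 22 barcodes, against 0 of 40 in the Gpihbp1 set and 1 of 31 in the Plvap set. Fbln5, an elastic fibre protein, was found in 5 Gja4 barcodes and had no UMI in either of the other sets named here. The vasoconstrictor Edn1 was at 428 CPM in the Gja4 set, 179 CPM in the Plvap set and 34.5 CPM in the Gpihbp1 set. Pecam1 (960, 941 and 854 CPM in that order) and the BMP target Id3 (1337, 1801 and 1587 CPM) were close in all of them.

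**Figure D2:**
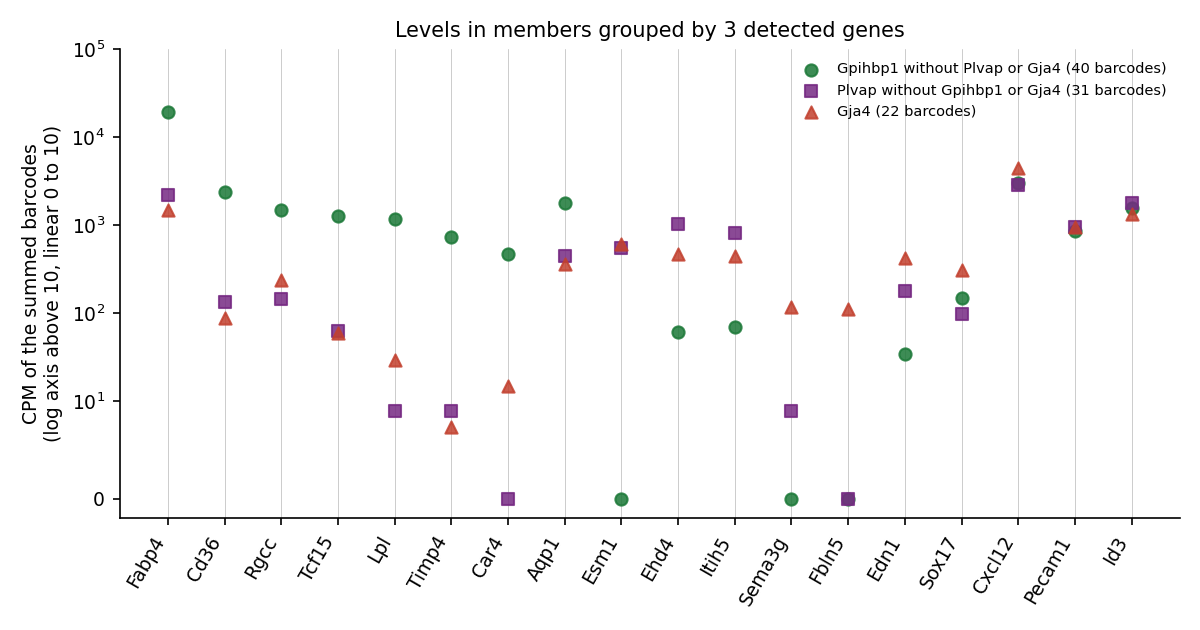
CPM of 18 genes, on an axis that is linear to 10 and logarithmic above, in members grouped by Gpihbp1 (circles), Plvap (squares) and Gja4 (triangles). Fabp4, Cd36, Rgcc, Tcf15, Lpl, Timp4 and Car4 were highest in the Gpihbp1 set, Sema3g and Fbln5 in the Gja4 set, and Pecam1 and Id3 lay close in all.

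Against the Ackr1-positive barcodes, members had more RNA of 3 of 6 tested capillary genes, 3 of 5 tested basement membrane genes and the chemokine Cxcl12, and less of both tested venular genes. This contrast has both kinds of cell in each library, so the 4 libraries are its replicates. UMIs were summed per library over the 19, 59, 31 and 25 members and over 4, 10, 8 and 2 Ackr1-positive barcodes, and tested by edgeR's quasi-likelihood test with library as a block. Of 789 genes tested, 17 were higher (2.15%) and 10 lower (1.27%) in members at a Benjamini-Hochberg adjusted p of at most 0.05, 27 in all (3.42%), and 99 had an unadjusted p under 0.05. The genes of the rule were left out. Salivary gland RNA was uneven here too, at 3472 CPM in the Ackr1-negative and 48222 CPM in the Ackr1-positive sum of the disease plus metformin library, and without mixed barcodes 25 genes were higher and 11 lower. Since only 24 barcodes were Ackr1-positive and the healthy sum held 1982 UMIs, 1 UMI there equals 505 CPM.

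Among the capillary genes, Rgcc was at 763 CPM in disease plus metformin, 484 in disease, 505 in metformin and 708 in healthy members, and had 0 UMIs in the Ackr1-positive barcodes of every library. With 282 UMIs against 0, it was at least 14.4-fold higher, taking 3 UMIs over the whole Ackr1-positive group in place of 0 (edgeR adjusted p = 0.000313). Rgcc lies on the minus strand of chromosome 14 at 79288756 to 79301645 in GRCm38. Gpihbp1, on chromosome 15 at 75596628 to 75599481, was at 357, 665, 288 and 577 CPM in members and also at 0 UMIs in all Ackr1-positive sums, at least 11.9-fold higher (adjusted p = 0.00114). Cd36 was at 369, 701, 734 and 1179 CPM in members, and pooled over libraries at 732 CPM against 39.6 CPM, a log2 fold change of 4.02 (SE 0.73, n = 4 libraries, adjusted p = 0.000973). Every member sum lay above every Ackr1-positive sum for these 3 genes. Rgcc had a UMI in 66 of 134 members, 0 of 24 Ackr1-positive barcodes (allowing up to 12.5%) and 5.74% of keratinocyte barcodes, whereas Gpihbp1 was found in 1 of 5345 keratinocyte barcodes.

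The other capillary genes tested did not pass. Fabp4 was at 7142 CPM pooled over members and 6453 CPM over Ackr1-positive barcodes (log2 fold change 0.22, SE 0.33, adjusted p = 0.846), Aqp1 768 CPM in members and 1267 CPM in Ackr1-positive barcodes (-0.47, adjusted p = 0.685) and Meox2 152 and 172 CPM in that order (-0.37, adjusted p = 0.841). Fabp4 had a UMI in 53.7% of members and 79.2% of Ackr1-positive barcodes, against 0.823% of keratinocyte barcodes. The capillary list had 3 of 6 tested genes higher and none lower, and the fatty acid list 2 of 5. Summed over its 14 genes, the capillary list stood at 7460, 14709, 9382 and 15241 CPM in members (disease plus metformin, disease, metformin, healthy) and at 8331, 14065, 3984 and 10595 CPM in Ackr1-positive sums, so the sum was lower in members in disease plus metformin and higher in the other 3 libraries, in disease by little. Fabp5 missed the threshold at 744 CPM in members and 198 CPM in Ackr1-positive barcodes (adjusted p = 0.0783). The lists were drawn up with earlier results of these data known, and genes with few UMIs were not tested, so these counts describe the lists.

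Cxcl12, the chemokine that binds Cxcr4 on leukocytes and progenitor cells, differed with the smallest adjusted p. It was at 1970, 2841, 4444 and 3302 CPM in members (disease plus metformin, disease, metformin, healthy) and at 0, 117, 28.1 and 0 CPM in Ackr1-positive sums, a log2 fold change of 5.99 (SE 0.56, adjusted p = 1.35e-07). In all, members held 1639 UMIs of Cxcl12 and Ackr1-positive barcodes 4. Igfbp7, a secreted protein of the vessel wall that binds insulin-like growth factors, was at 5060, 4607, 4932 and 3761 CPM in members and 721, 468, 561 and 0 CPM in Ackr1-positive sums (log2 fold change 3.27, SE 0.38, adjusted p = 2.3e-06). Igfbp7 also had a UMI in 33.1% of keratinocyte barcodes, against 87.3% of members. The retinol carrier Rbp7 had 235 UMIs in members and 2 in Ackr1-positive barcodes (4.18, SE 0.79, adjusted p = 0.00137).

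The vascular basement membrane, the collagen and laminin sheet under the endothelium, had 3 of 5 tested genes higher in members and none lower. Col4a1, a chain of collagen IV, was at 1354, 1245, 1004 and 944 CPM in members and 320, 117, 224 and 0 CPM in Ackr1-positive sums (log2 fold change 2.62, SE 0.47, adjusted p = 0.000745). Its partner chain Col4a2, its head-to-head neighbour on chromosome 8, stood at 628 CPM in members and 132 CPM in Ackr1-positive barcodes pooled (2.46, adjusted p = 0.0119), and the collagen-binding protein Sparc at 2410 CPM in members and 871 CPM in Ackr1-positive barcodes (1.54, adjusted p = 0.00641). The laminin chain Lama4 (237 CPM in members and 66.0 CPM in Ackr1-positive barcodes, adjusted p = 0.141) and perlecan, Hspg2 (233 CPM in members and 145 CPM in Ackr1-positive barcodes, adjusted p = 0.634), did not pass. The other genes higher in members were Rflnb, a filamin-binding protein, Clic5, an intracellular chloride channel protein, Itih5, Cald1 and Syne1, which bind actin, the matrix protein Sparcl1, Slc9a3r2 and Ly6c1. Their log2 fold changes ran from 1.46 for Ly6c1 to 3.43 for Rflnb. The call of Slc9a3r2 was lost under 5 of the alternatives, the most of any gene named, among them leaving out the disease plus metformin, the disease or the metformin library (log2 fold changes 1.73, 1.78 and 1.43). Leaving out the metformin library also ended the calls of Cald1 (3.57), Itih5 (2.47), Ly6c1 (1.47) and Syne1 (2.32), leaving out the disease plus metformin library those of Cald1 (2.66) and Syne1 (2.21), and leaving out the disease library that of Sparc (1.33).

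Venular genes lay on the other side, a direction tied to the split itself, since Ackr1 marks venules. Lrg1, a secreted glycoprotein of inflamed and venular endothelium, was at 86.2, 109, 70.5 and 13.1 CPM in members and 961, 1247, 842 and 2018 CPM in Ackr1-positive sums, a log2 fold change of -3.73 (SE 0.48, adjusted p = 9.95e-06). It was found in 13.4% of members, 70.8% of Ackr1-positive barcodes and 9.56% of keratinocyte barcodes, so the share in members was close to that in cells outside the vessel. P-selectin, Selp, on which leukocytes roll, had 0 UMIs in members of 3 libraries and 508 CPM in disease, where 92.9% of the UMIs of all members came from 1 barcode. Ackr1-positive sums had Selp at 320, 662, 701 and 1514 CPM (log2 fold change -3.30, SE 0.88, adjusted p = 0.0311), and the call was lost under 4 of the alternatives, among them leaving out the metformin or the healthy library (-2.22 and -2.64) and the fit with no library block (-2.07). Ptgs1, cyclooxygenase 1, was at 34.5 CPM in members and 251 CPM in Ackr1-positive barcodes (-2.80, adjusted p = 5.44e-06), and Apoe, which carries lipid between cells, at 339 CPM in members and 2468 CPM in Ackr1-positive barcodes (-2.68, adjusted p = 0.00034). The RhoA exchange factor Net1 (-3.56, adjusted p = 1.3e-06), Igfbp4, Klk8, Timp2 and Il6st, the shared receptor chain of the IL-6 family, were also lower, and of the genes named here each but Il6st was lower in members in all 4 libraries. The call of Klk8 was lost under 4 alternatives, among them leaving out the disease plus metformin or the healthy library (-1.67 and -2.01) and the fit with no library block (-1.88), and that of Il6st without the metformin library (-2.10).

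Lists with no call in this contrast were the endothelial transcription factors (0 of 8 tested, with Erg at 219 CPM in members and 132 CPM in Ackr1-positive barcodes), caveolae and fenestral diaphragm (0 of 7), endothelial junctions (0 of 5), BMP and TGF-beta (0 of 4), MHC class I (0 of 4), interferon response (0 of 5), immediate-early genes (0 of 9), heat shock (0 of 6), glycolysis (0 of 5) and the mitochondrially encoded genes (0 of 11). Given the few Ackr1-positive barcodes, these counts do not show equal levels. The number of calls moved with the samples: without the disease library 26 genes were higher, without the disease plus metformin library 16 were lower and without the healthy library 18 were lower. With each barcode thinned to 1000 UMIs, 153 genes could be tested, 2 were higher and 0 lower.

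**Figure D3:**
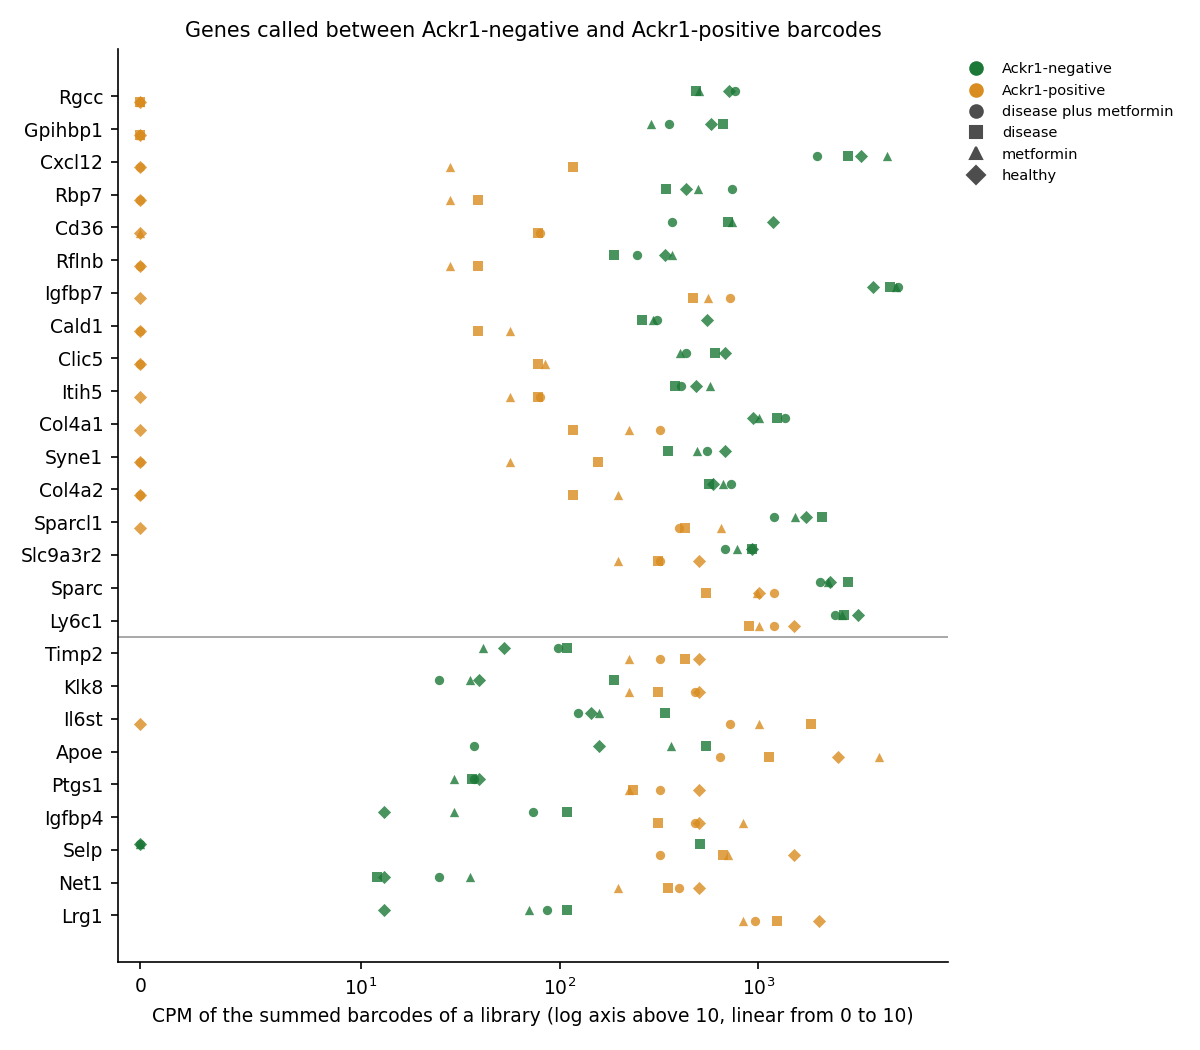
CPM of the called genes named in the text, in the summed Ackr1-negative (green) and Ackr1-positive (orange) barcodes of each library, on an axis that is linear to 10 and logarithmic above; marker shapes stand for libraries. Rgcc and Gpihbp1 had 0 UMIs in every Ackr1-positive sum, and the genes below the line were lower in Ackr1-negative barcodes.

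The stretches of 150 bases just upstream of the start of 2 genes higher in members, Rgcc and Cxcl12, and of 2 lower in members, Lrg1 and Selp, are shown because these genes mark both sides of the contrast. They are from RefSeq promoters of GRCm38.p6, each read along its gene's own strand, and end before the annotated transcript start. The motif searched was AGGAAG, a core of ETS factors such as Erg and Fli1, on both strands, and it is in capitals. Rgcc is chr14:79301646-79301795, minus strand, with a GC content of 70.7% and 13 CpG dinucleotides. Cxcl12 is chr6:117168385-117168534, plus strand, with 72.7% GC and 12 CpG. Lrg1 is chr17:56122002-56122151, minus strand, with 54.7% GC and no CpG, and Selp is chr1:164115114-164115263, plus strand, with 55.3% GC and 3 CpG.
Rgcc: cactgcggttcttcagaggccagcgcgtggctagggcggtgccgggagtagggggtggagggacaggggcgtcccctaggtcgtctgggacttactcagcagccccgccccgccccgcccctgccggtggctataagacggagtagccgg
Cxcl12: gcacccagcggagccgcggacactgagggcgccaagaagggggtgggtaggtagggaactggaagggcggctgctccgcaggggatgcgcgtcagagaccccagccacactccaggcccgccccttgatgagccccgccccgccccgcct
Lrg1: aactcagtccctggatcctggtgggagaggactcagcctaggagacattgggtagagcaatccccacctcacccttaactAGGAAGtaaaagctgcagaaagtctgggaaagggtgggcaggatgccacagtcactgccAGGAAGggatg
Selp: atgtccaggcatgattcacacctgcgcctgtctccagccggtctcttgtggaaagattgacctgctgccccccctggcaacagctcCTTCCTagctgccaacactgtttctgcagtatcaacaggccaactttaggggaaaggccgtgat

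Rgcc and Cxcl12 have GC-rich upstream stretches with no match to the motif, while Lrg1 holds 2 matches and Selp 1. Of 32851 promoter windows of the same length, 19.7% held at least 1 match, and the median GC content was 54%. Those windows end at the RefSeq start, whereas the stretches of Rgcc and Lrg1 lie 10 and 55 bases further upstream, before the GENCODE start. These 4 stretches were picked for their genes, and a match is a description of letters, not a binding site. Gpihbp1 is named only.

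Between the libraries, several lipid-uptake and immediate-early genes of members were lower in both libraries with metformin than in their counterparts without it. Each condition is 1 library, so ratios have intervals for counting error only and no test, and a gene counted as higher or lower from a 2-fold difference. Genes with at least 20 UMIs over the pair were measured. For metformin against healthy, 7.14% of 2241 genes were higher and 9.55% lower (16.7% in all). For disease plus metformin against disease, 5.78% of 2249 were higher and 9.96% lower (15.7%). For disease against healthy, 6.67% of 2235 were higher and 6.89% lower (13.6%), and for disease plus metformin against metformin 8.08% of 2265 were higher and 9.76% lower (17.8%). The median log2 ratio over all genes was -0.07, -0.16, 0.02 and -0.02 in that order, against which the list medians below are read.

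Of the 7 measured fatty acid handling genes, 4 were lower and none higher in metformin against healthy members (median log2 ratio -1.003), and 5 were lower and none higher in disease plus metformin against disease (median -1.31). Disease against healthy had 1 of 7 lower (median -0.12), and disease plus metformin against metformin 1 of 7 (median -0.52). All 7 lay below 0 in both metformin comparisons. Lpl was at 123 CPM in disease plus metformin, 363 in disease, 206 in metformin and 564 in healthy members. Its log2 ratio was -1.56 (95% interval -2.69 to -0.58) for disease plus metformin against disease and -1.46 (-2.14 to -0.78) for metformin against healthy. Fabp4 was at 4198, 9697, 5296 and 8859 CPM in the same order of libraries, with ratios of -1.21 (-1.38 to -1.04) and -0.74 (-0.89 to -0.60). The libraries with metformin thus had the 2 lowest levels of both genes.

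Gpihbp1 was at 357, 665, 288 and 577 CPM, 2-fold lower in metformin against healthy (95% interval of the log2 ratio -1.62 to -0.38) and short of that in disease plus metformin against disease (-0.90, -1.54 to -0.30). Cd36 was at 369, 701, 734 and 1179 CPM, and its ratios of -0.93 and -0.68 in the order disease plus metformin against disease and metformin against healthy were both under 2-fold. Tcf15 was at 61.6, 586, 311 and 524 CPM, from 5 UMIs in 4 barcodes in disease plus metformin and 97 UMIs in 22 barcodes in disease, a ratio of -3.25 (-4.91 to -1.98). Its partner Meox2 was at 73.9, 206, 106 and 223 CPM. Fabp4, Cd36, Gpihbp1, Tcf15 and Meox2 are also on the capillary list, which was lower as well. That list had 4 of 13 measured genes lower and 0 higher in metformin against healthy (median -0.74). In disease plus metformin against disease it had 3 of 11 lower and 0 higher (median -0.90). A drop of lipid uptake is thus not set apart here from one of capillary genes. The water channel Aqp1, a capillary gene outside lipid uptake, was at 517, 943, 575 and 1088 CPM, with a ratio of -0.87 for disease plus metformin against disease and -0.92 for metformin against healthy, while Rgcc was at 763, 484, 505 and 708 CPM and was 0.66 higher on the log2 scale in disease plus metformin than in disease.

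The lipid result depended on how barcodes were weighed. The count of lower genes was 1 of 7 for metformin against healthy (median -0.65) and 3 of 7 for disease plus metformin against disease (median -0.88) without the 17 mixed barcodes. Without the barcode with most UMIs in each library the medians were -0.71 and -0.54, with every barcode weighted equally -0.55 and -0.68, and among barcodes with a Gpihbp1 UMI alone -0.41 and -1.22 in that order. The Gpihbp1 set made up 5 of 19 members in disease plus metformin, 16 of 59 in disease, 9 of 31 in metformin and 10 of 25 in healthy. Fabp5 was at 320, 792, 411 and 1835 CPM, and a single barcode held 65.7% of its healthy UMIs.

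Immediate-early genes, which many stimuli and the handling of cells switch on quickly, had 7 of 15 measured members lower and none higher in metformin against healthy (median -0.74), and 7 of 16 lower and none higher in disease plus metformin against disease (median -0.79). In disease against healthy 2 of 15 were lower (median 0.19), and in disease plus metformin against metformin 2 of 14 were higher and 1 lower (median 0.25). Fos was at 443, 992, 341 and 917 CPM (disease plus metformin, disease, metformin, healthy), and its ratios were -1.16 (-1.72 to -0.63) for disease plus metformin against disease and -1.43 (-1.96 to -0.91) for metformin against healthy. Fos had a UMI in 5, 25, 11 and 8 members of the libraries in that order. Jun was at 492, 647, 229 and 786 CPM and Jund at 554, 647, 341 and 826 CPM, each over 2-fold lower in metformin against healthy (-1.78 and -1.28) but not in disease plus metformin against disease (-0.39 and -0.22). Dusp1, a phosphatase that ends MAP kinase signals, was at 123, 308, 58.7 and 223 CPM, and Junb at 246, 550, 241 and 341 CPM. Without mixed barcodes 5 of 11 and 6 of 15 genes were lower in the order metformin against healthy and disease plus metformin against disease, and with equal weights 4 of 15 and 8 of 16. A single barcode held 31.2% of the list's UMIs in disease plus metformin, 12.0% in disease, 15.2% in metformin and 28.3% in healthy members. The healthy level thus rests in good part on 1 barcode, and values without these barcodes are not given here.

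**Figure D4:**
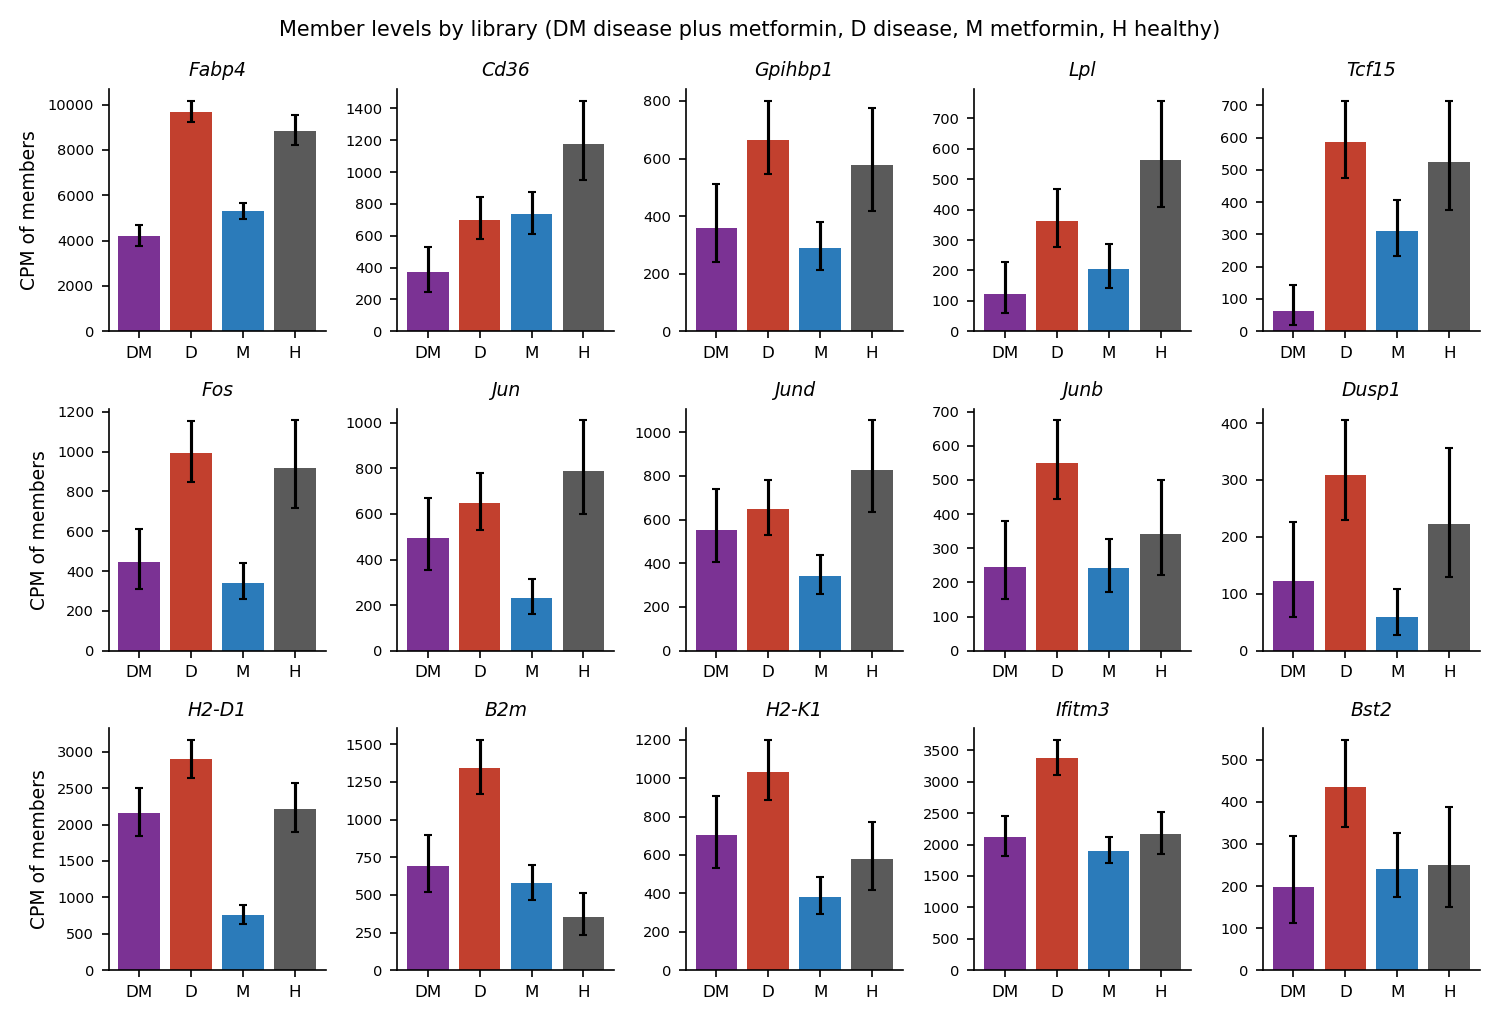
CPM of 15 genes in the summed members of each library, with exact Poisson 95% intervals for counting error. Fabp4, Lpl, Tcf15, Fos and Dusp1 were lower in both libraries with metformin than in their counterparts without it, and B2m was highest in the disease library.

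B2m, H2-D1 and H2-K1, genes of antigen presentation, were highest in the disease library. B2m, the light chain of MHC class I, was at 689 CPM in disease plus metformin, 1342 in disease, 575 in metformin and 354 in healthy members. It was found in 13 of 19, 42 of 59, 26 of 31 and 14 of 25 members in the same order, and the log2 ratio for disease against healthy was 1.92 (1.34 to 2.56). All 7 measured class I genes lay above 0 in disease against healthy, 1 of them by 2-fold (median 0.39), and 2 of 7 were lower in disease plus metformin against disease (median -0.92). The 12 class I genes summed to 4026 CPM in disease plus metformin and 6191 CPM in disease members. Without the mixed barcodes the sums were 4980 and 6234 CPM, a smaller difference. The heavy chain H2-D1 took another order, at 2154, 2896, 757 and 2215 CPM, lowest in the metformin library. Its ratio was -1.55 (-1.89 to -1.21) for metformin against healthy, or -0.92 with every barcode weighted equally, and 1.51 (1.17 to 1.85) for disease plus metformin against metformin. H2-K1 was at 702, 1034, 382 and 577 CPM. Heavy chain genes are near copies of each other, and how reads that match several were counted is not given in the sources used here, so levels of single heavy chains are uncertain.

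The interferon-response list lay above 0 in disease against healthy members. Of 12 measured, 2 were higher and none lower in disease against healthy (median 0.58), all 12 lay above 0, and 3 were lower and none higher in disease plus metformin against disease (median -0.47). The 24 genes of the list summed to 8359 CPM in disease plus metformin and 10108 CPM in disease members. Without the mixed barcodes these sums were 10403 and 10204 CPM, so the disease plus metformin sum was no longer the lower. Metformin against healthy had none of 8 past 2-fold (median -0.12). Ifitm3, which blocks entry of viruses, was at 2117, 3380, 1902 and 2162 CPM, and the tether Bst2 at 197, 435, 241 and 249 CPM. Of the 12 genes, 3 lay above 0 in disease plus metformin against disease, with Ly6e furthest, at 1674, 949, 1016 and 944 CPM (0.82, 0.48 to 1.16, against disease).

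**Figure D5:**
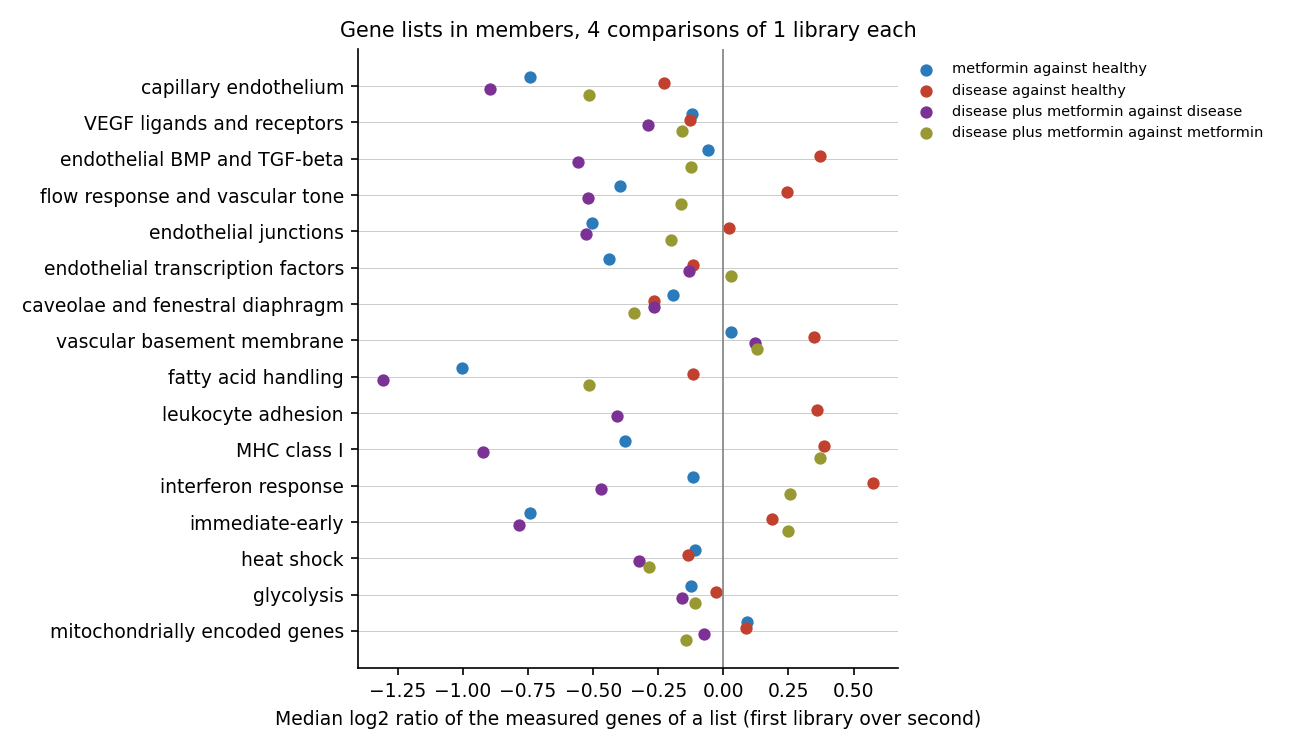
Median log2 ratio of the measured genes of each list in members, for 4 comparisons of 1 library each, shown where at least 5 genes were measured. Fatty acid handling genes lay furthest below 0 in metformin against healthy and in disease plus metformin against disease, immediate-early genes below 0 in both, and mitochondrially encoded genes near 0 in all 4.

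Vessel tone and junction genes had some members past 2-fold on the lower side, and transcription factors few. Klf2, a transcription factor switched on by blood flow, was at 616, 744, 558 and 1140 CPM (disease plus metformin, disease, metformin, healthy), 2-fold lower in metformin against healthy (-1.03, -1.47 to -0.59). The flow and tone list had 2 of 10 lower there and 1 of 10 in disease plus metformin against disease. Its genes summed to 2554 CPM in metformin and 3748 CPM in healthy members, and to 3333 and 4438 CPM without the mixed barcodes. The ratio of Klf2 without them is not given here. Edn1 was at 197, 327, 47.0 and 210 CPM, lowest in metformin, where 4 barcodes held it. Endothelial junction genes had 2 of 11 lower in metformin against healthy, Cldn5 among them with 7 UMIs in 3 barcodes, and 2 of 12 lower in disease plus metformin against disease. With so few genes a list, these counts are not set apart from the 9.55% and 9.96% lower over all genes. Endothelial transcription factors had 0 of 11 past 2-fold in metformin against healthy and 1 of 13 in disease against healthy. Basement membrane genes had 0 of 8 in metformin against healthy and 0 of 9 in disease plus metformin against disease. Col4a1 was at 1354, 1245, 1004 and 944 CPM.

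Receptors and transcription factors shared by all endothelium were found in every library, at levels that differed by up to about 2-fold for those named here. Nrp1, the co-receptor of VEGF, was at 492 CPM in disease plus metformin, 647 in disease, 663 in metformin and 983 in healthy members, and the angiopoietin receptor Tek at 320, 381, 211 and 275 CPM. None of the 3 measured Tie and angiopoietin genes passed 2-fold in any of the 4 comparisons. Tcf4, a helix-loop-helix factor, was at 1317, 1354, 898 and 1219 CPM, the ETS factor Erg at 185, 242, 206 and 236 CPM, and the hypoxia factor Epas1 at 431, 435, 399 and 393 CPM. Of the BMP targets, Id3 was at 1502, 1886, 1245 and 1153 CPM and Id1 at 591, 907, 628 and 1075 CPM. Id1 was lower in both libraries with metformin than in their counterparts, at a log2 ratio of -0.62 (-1.12 to -0.14) for disease plus metformin against disease and -0.77 (-1.20 to -0.34) for metformin against healthy, short of 2-fold in each. Caveolin-1, Cav1, which forms the caveolae of capillaries, had the same order, at 1182, 1868, 1239 and 2320 CPM, with ratios of -0.66 (-1.01 to -0.33) and -0.90 (-1.20 to -0.61). Mixed barcodes weighed on the lists of both genes. With them the 12 BMP and TGF-beta genes summed to 3213, 4407, 3235 and 3735 CPM. Without them the sums were 4271, 4409, 4191 and 4135 CPM. The 8 caveolae and diaphragm genes moved from 4518, 6154, 5660 and 6788 CPM to 6096, 6234, 7578 and 7611 CPM. Both sums thus lay closer in each metformin pair without mixed barcodes. Ratios of Id1 and Cav1 without them are not given here.

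Adhesion molecules of activated venules were scarce in members. E-selectin, Sele, was at 49.2 CPM in disease plus metformin and 96.7 in disease members, from 2 and 3 barcodes, and had 0 UMIs in metformin and healthy members. Icam1 was at 86.2, 109, 29.4 and 13.1 CPM in the 4 libraries, Vcam1 at 24.6, 36.3, 35.2 and 0 CPM, and von Willebrand factor, Vwf, at 123, 96.7, 106 and 26.2 CPM. The 12 venular genes beside Ackr1 summed to 616, 1342, 528 and 459 CPM in members, with 49.1% of the disease UMIs in 1 barcode, against 2403, 5377, 5134 and 4036 CPM for the same 12 genes in Ackr1-positive barcodes. By contrast Icam2 (295, 393, 147 and 262 CPM), Cd34 (456, 605, 434 and 472 CPM) and Podxl (419, 369, 429 and 354 CPM), surface proteins of resting endothelium, were found in all 4 libraries.

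Esm1 and Plvap stood highest in the metformin library. Plvap, a gene of the rule, was at 542, 689, 975 and 485 CPM. Esm1 was at 12.3, 84.6, 716 and 105 CPM from 1, 14, 122 and 8 UMIs in 1, 5, 10 and 4 barcodes. Its ratio for metformin against healthy was 2.77 (1.75 to 4.02). Over that pair more than 20% of its UMIs lay in 1 barcode, so the ranking of genes given further below leaves it out. In the metformin library 1 mixed barcode held 20.7% of the UMIs of the tip and sprouting list, and its part of the Esm1 UMIs is not given here. Members that held Plvap without Gpihbp1 or Gja4 were 3 of 19, 18 of 59, 8 of 31 and 2 of 25. Cxcl12 was at 1970, 2841, 4444 and 3302 CPM, 1.17 lower on the log2 scale in disease plus metformin than in metformin (-1.17, -1.43 to -0.93).

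Metformin is known to act on energy metabolism. The mitochondrially encoded subunits of the respiratory chain had 0 of 12 past 2-fold in each of the 4 comparisons. Glycolysis had 1 of 8 lower in metformin against healthy and 1 of 8 in disease plus metformin against disease, the kinase Pgk1 in both, which is near the shares of 9.55% and 9.96% lower over all genes. Of the list of AMPK and mTORC1 regulators and targets only 2 genes could be measured in each of these, among them Txnip, an inhibitor of glucose uptake, at 419, 744, 699 and 485 CPM. Cell cycle UMIs lay 88.4% in 1 barcode of the metformin library.

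Ranked by the interval bound nearest 0, leaving out genes with more than 20% of their UMIs in 1 barcode, the genes highest in metformin against healthy members included Ubb, a ubiquitin gene (740 CPM in metformin and 288 CPM in healthy, the order of each pair here), S100a10, the partner of annexin A2 (1186 and 577 CPM), the HDL receptor Scarb1 (164 and 39.3 CPM) and Entpd1, the ectoenzyme CD39 that degrades ATP (569 and 275 CPM). Lowest were Schip1 (29.4 CPM in metformin and 236 CPM in healthy), Tcim (147 and 642 CPM), the receptor phosphatase Ptprm (429 and 1258 CPM) and Sgk1, a glucocorticoid-induced kinase (194 and 655 CPM). In disease plus metformin against disease, Hspa4, a heat shock protein of the Hsp110 family (222 CPM in disease plus metformin and 66.5 CPM in disease), Ubb (837 and 429 CPM) and T-cadherin, Cdh13 (1502 and 943 CPM), were among the highest. Among the lowest were Tcf15, Gngt2 (197 CPM in disease plus metformin and 713 CPM in disease) and the protease inhibitor Cst3 (1797 and 3488 CPM). Ubb was the only gene named on the higher side in both.

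In disease against healthy members, the highest were led by B2m and Lmo1 (157 CPM in disease and 13.1 CPM in healthy) and included Tspo, a protein of the outer mitochondrial membrane (798 and 341 CPM), and the calcium-binding S100a6 (5653 and 3329 CPM). The lowest were led by Car4 (72.5 CPM in disease and 288 CPM in healthy, ratio -1.99, -3.14 to -0.91) and held Sgk1 (284 and 655 CPM) and the receptor phosphatase Ptprg (816 and 1573 CPM). Sgk1 was thus lower in both libraries set against healthy, which share that library. In disease plus metformin against metformin, the highest were led by H2-D1 and S100a4 (505 CPM in disease plus metformin and 188 CPM in metformin) and included Ldb2, a LIM-domain-binding factor (677 and 276 CPM), and the lowest included Ndrg1 (36.9 CPM in disease plus metformin and 229 CPM in metformin), the lipid phosphatase Plpp3 (382 and 1086 CPM), Cxcl12 and Scarb1 (24.6 and 164 CPM). All of these rest on 1 library per condition.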

How the data were processed

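Mouse gingiva was profiled by droplet single-cell RNA sequencing in 4 libraries, 1 per group. Per the submitters' processing notes, reads were converted with bcl2fastq and counted with Cell Ranger 7.0.1 on mm10; no further filter is given in the sources used here. The deposited values are counts, whole UMIs per gene and barcode for 8295 barcodes and 32285 genes, with no normalization by the authors, and the lowest barcode total was 500 UMIs. Genes sharing 1 of 32245 symbols were summed. No doublet caller was run here, so doublets may remain. Members and gene lists were chosen with earlier results of these data known. The 22 pathway lists and 13 marker lists were compared by counts and medians.

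Levels are CPM of UMIs summed over barcodes, with exact Poisson intervals; ratios have conditional exact binomial 95% intervals that treat each UMI as an independent draw and are too narrow where few barcodes hold most UMIs. Nothing in the labels says how many mice a library holds. The Ackr1-negative and Ackr1-positive sums were tested across all genes with edgeR 4.0.16 in R 4.3.3 (TMM, filterByExpr, quasi-likelihood, library as block, 3 residual degrees of freedom) with Benjamini-Hochberg adjustment; DESeq2 1.42.0 was an alternative. The procedure was checked on simulated data. Both sums of a library come from the same cell suspension, which is where the pairing comes from.

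Named genes were those of the rule, up to 4 per list with most UMIs in members, the 10 highest and 10 lowest called genes with the same sign in all 4 libraries, and 8 each way per condition difference ranked by the interval bound nearest 0 (at least 20 UMIs, no barcode over 20% of them, CPM in members at least that over kept barcodes; sex-linked, predicted, mitochondrial, ribosomal, haemoglobin and antigen receptor genes left out). A called gene of the contrast with Ackr1-positive barcodes is not reported here. Other genes, and the sets by Gja4, Gpihbp1 and Plvap, were chosen after values were seen. Gene positions are from GENCODE vM21 and sequences from RefSeq. Python 3.11.15, numpy 2.4.6, scipy 1.17.1, pandas 2.3.3 and matplotlib 3.10.9 were used. The alternatives changed the filters on barcodes and genes, the scaling, the fold, the weights of barcodes and the libraries included.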

Additional observations from a re-analysis of the deposited data

How the results depend on the processing

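The shares of members were 1.88% in disease plus metformin, 4.71% in disease, 1.82% in metformin and 2.95% in healthy libraries among barcodes with at least 500 genes; 2.54% in disease with at least 5 of the 10 genes; and 1.78% in metformin after thinning. In the contrast with Ackr1-positive barcodes, 82 genes were higher and 17 lower with no filter on low counts (13317 tested) and 2 and 0 after thinning to 1000 UMIs; without 1 library each, 12 to 26 were higher and 10 to 18 lower; with no library block 21 and 12, of which 17 and 8 were shared. DESeq2 gave 17 and 13. The percentage of genes past the fold was 21.7 (disease against healthy) and 24.5 (disease plus metformin against disease) at a minimum of 10 UMIs; 10.9 (metformin against healthy), 7.50, 9.35 and 10.8 (disease plus metformin against metformin) at 50 UMIs; 38.5, 35.2, 37.2 and 38.8 in that order at 1.5-fold; and 30.2 (metformin against healthy) and 24.4 (disease against healthy) with every barcode weighted equally. Members with at least 3 genes of the arterial, capillary, tip and venular lists were 46.3%, 59.0%, 17.9% and 18.7%, and after thinning with 2 genes 49.5%, 58.1%, 10.5% and 12.4%. The cell cycle median for disease plus metformin against metformin was 0.52 with equal weights and -1.19 otherwise, and the ratio of Pcp4l1 there was 0.072 among Gpihbp1 barcodes and -1.52 otherwise. The cause of these shifts was not tested, except that stricter filters leave fewer genes. Of the other values, 240 of the named contrast genes' fits kept their call and 28 lost it. Genes that could not be tested under a setting are not among these, and after thinning 2 kept their call and 5 lost it. Between conditions 610 ratios of named genes stayed within their counting interval and 33 moved. The sets without mixed barcodes, without the barcode with most UMIs and with a Gpihbp1 UMI were partly chosen after seeing the data. Depth limits all: 1 library per group, and 24 Ackr1-positive barcodes.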
